A study of Mus musculus with 15 samples.

Results

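The 44 genes described here drive or mark the cell division cycle, and they were followed in the mouse trigeminal ganglion after a corneal wound treated with vehicle, with the lipid mediator RvD6 or with its stereoisomer RvD6si. They were chosen by name, from their known roles but with earlier results of these data known, and each was found in the count table by its identifier. All 44 of 44 were found among the 55573 genes of the table and all 44 had reads, against 32699 genes with a read in the whole table. The filter on low counts that precedes the test was passed by 42 of the 44 genes and by 16567 genes in all. Bub1 and Foxm1 did not pass it. A further 6 genes, Ccnb1, Aurkb, Plk1, Bub1b, Cenpf and Cdc6, passed only because of their counts in the RvD6 samples. For the fits of all 15 samples, counts over all 44 genes without the filter are therefore given beside the filtered ones.

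A cell that divides goes through an ordered set of gene programs. Cyclin E and the E2F factors open the step from G1 to S, the MCM ring proteins license and unwind replication origins, PCNA clamps the polymerase to DNA, and ribonucleotide reductase and thymidylate synthase supply nucleotides. Cyclin A, cyclin B and CDK1 then carry the cell into mitosis, where kinesins, kinetochore proteins and the anaphase-promoting complex separate the chromosomes. The trigeminal ganglion holds the sensory neurons of the cornea, which no longer divide, together with satellite glia, Schwann cells, fibroblasts, vessels and blood cells, some of which can divide.

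The mice were 10-week-old males of the CD1 strain. In every group the right cornea was marked with a 2-mm trephine, its epithelium and anterior stroma were removed, and the right ganglion was taken after 12 days of topical treatment given 3 times per day. The groups of 5 samples each received vehicle (samples 1 to 5), the RvD6 standard (samples 6 to 10, called RvD6) or the RvD6 isomer (samples 11 to 15, called RvD6si). RvD6 is a dihydroxy derivative of docosahexaenoic acid, and the isomer, isolated in the study from mouse tears and corneal media, differs from it in stereochemistry. All groups shared the wound, so an unwounded ganglion was not analysed here, and the doses used in these animals are not given in the sources used here. The labels do not say how many animals stand behind a sample, so the p-values measure the spread between these samples.

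Depth ranged from 4125962 to 9903396 reads assigned to genes per sample. Sensory neuron markers were abundant in all 15 libraries, with summed levels of 7620 to 17100 CPM (read counts scaled by the TMM library size of each sample) over 12 genes. The library RvD6si 15, which has the fewest reads, stood apart from the other 4 of its group. It was the highest of its group in 31 of the 44 genes and lay above every vehicle sample in 30 of them, whereas the other RvD6si libraries lay above every vehicle sample in 2 to 4. The RvD6 libraries did so in 18 to 32. Groups were kept as labelled, and whether this library carries the label or RNA of another sample was not tested. Most counts and medians of the 44 genes that involve RvD6si, and the values of several single genes, are therefore given with and without this library. The others are given with all samples only.

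**Figure D1:**
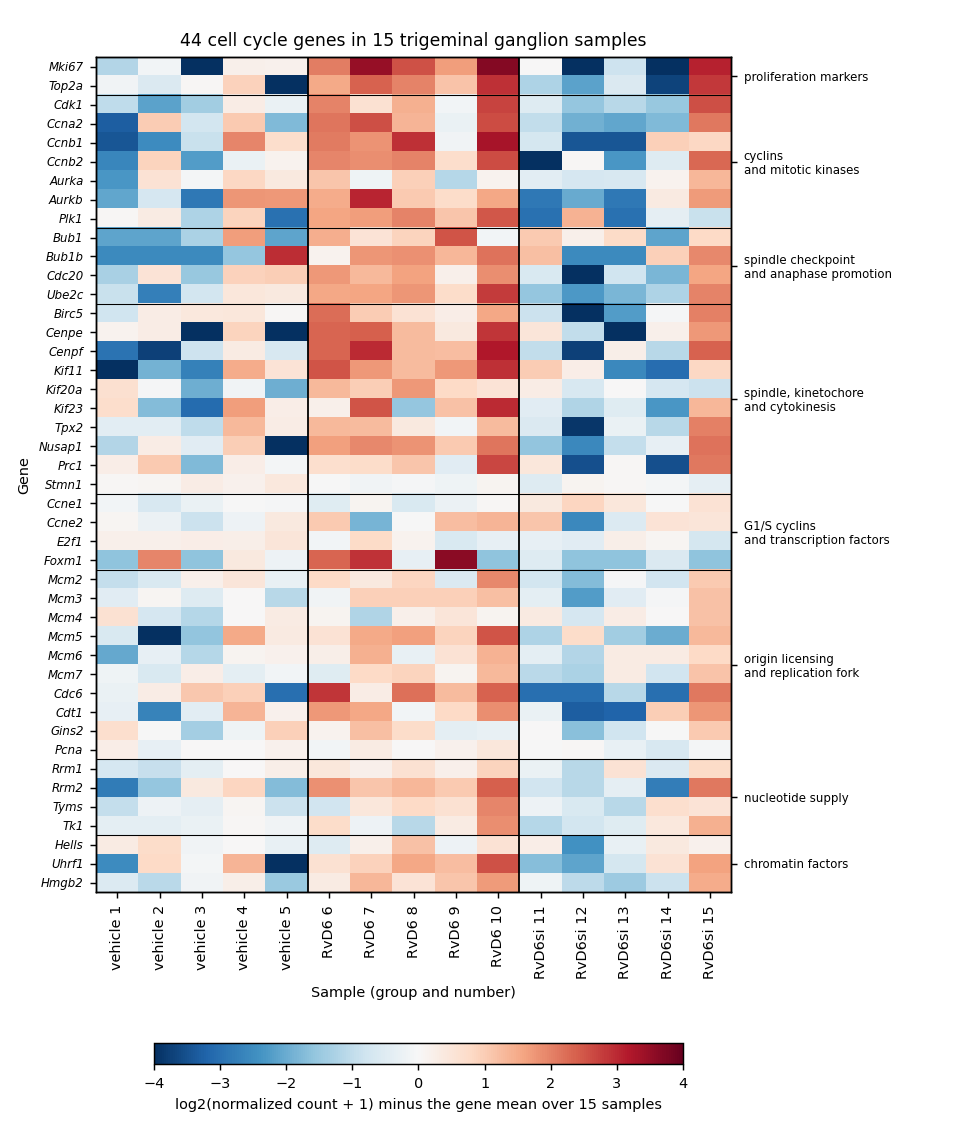
Heat map of the 44 genes (rows, grouped by role) in the 15 samples (columns); colour is log2(normalized count + 1) minus the gene's mean over the samples, so red is above and blue below that mean. Most rows outside the G1/S group are red in most of the 5 RvD6 samples and in RvD6si 15, while Stmn1, Pcna and Ccne1 are pale throughout.

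Levels in the vehicle group were low for most of these genes. On the TPM scale, which divides by exonic length and so allows genes to be compared, Stmn1 had a mean level of 375 TPM ± 29.8 (SD, n = 5). Stathmin 1 binds tubulin and is made by mature neurons as well as by dividing cells. Pcna followed with 33.5 TPM ± 5.28, E2f1 with 13.4 TPM ± 1.05 and Ccne1, which encodes cyclin E1, with 10.7 TPM ± 1.71. The markers of cycling cells were far lower, with Mki67, the gene of the Ki-67 antigen, at 1.19 TPM ± 0.774, Top2a, the DNA topoisomerase of mitotic chromosomes, at 1.26 TPM ± 0.953 and Cdk1 at 0.924 TPM ± 0.623. Neighbours in this lower range did not differ beyond their spread. In bulk tissue, more cells of a dividing type and more RNA per cell cannot be told apart.

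The upstream sequences of 4 genes with higher mean counts in the RvD6 samples, and of Ccne1, with nearly equal ones, are shown to let the shared letters be seen. They are the 250 bases before the RefSeq start of the gene on GRCm38.p6, written 5′ to 3′ on the gene's strand. Capitals mark 3 kinds of motif on either strand, namely the CCAAT box (CCAAT, or ATTGG on the other strand), the cell cycle genes homology region or CHR (TTTGAA, or TTCAAA) and the E2F site (TTTCCCGC, TTTGGCGC, TTTCGCGC, TTTGCCGC and their complements). NF-Y binds CCAAT boxes, the DREAM and MuvB complexes bind the CHR, and E2F factors bind E2F sites, as background. The windows are chr7:135716380-135716629 for Mki67, chr10:69352913-69353162 for Cdk1, chr2:164769679-164769928 for Ube2c, chr1:128359706-128359955 for Mcm6 and chr7:38107491-38107740 for Ccne1, on the minus strand except for Ube2c.
Mki67: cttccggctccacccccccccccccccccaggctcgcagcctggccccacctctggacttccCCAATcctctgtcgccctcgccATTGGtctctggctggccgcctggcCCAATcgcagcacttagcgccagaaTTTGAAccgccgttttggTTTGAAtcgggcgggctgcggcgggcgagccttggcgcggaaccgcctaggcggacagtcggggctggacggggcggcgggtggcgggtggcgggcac
Cdk1: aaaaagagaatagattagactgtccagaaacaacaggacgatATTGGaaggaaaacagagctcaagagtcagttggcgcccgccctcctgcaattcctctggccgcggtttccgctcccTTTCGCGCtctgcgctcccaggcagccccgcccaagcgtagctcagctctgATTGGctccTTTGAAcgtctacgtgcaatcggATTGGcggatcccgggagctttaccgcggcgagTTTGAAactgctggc
Ube2c: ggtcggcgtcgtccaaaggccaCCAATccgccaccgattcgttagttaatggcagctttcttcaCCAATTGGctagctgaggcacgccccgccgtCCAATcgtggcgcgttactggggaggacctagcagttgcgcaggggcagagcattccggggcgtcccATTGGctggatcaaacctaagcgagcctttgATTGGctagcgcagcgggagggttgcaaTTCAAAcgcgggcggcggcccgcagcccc
Mcm6: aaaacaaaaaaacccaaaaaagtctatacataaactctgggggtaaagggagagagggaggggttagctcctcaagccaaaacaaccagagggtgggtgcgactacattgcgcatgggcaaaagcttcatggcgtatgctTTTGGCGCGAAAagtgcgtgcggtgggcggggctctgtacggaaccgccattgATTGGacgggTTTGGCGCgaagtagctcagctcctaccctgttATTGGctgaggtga
Ccne1: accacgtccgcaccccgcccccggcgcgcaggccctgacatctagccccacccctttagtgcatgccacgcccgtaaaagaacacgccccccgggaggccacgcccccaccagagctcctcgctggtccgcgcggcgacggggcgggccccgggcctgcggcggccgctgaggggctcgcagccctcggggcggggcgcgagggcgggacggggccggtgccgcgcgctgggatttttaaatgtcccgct

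Mki67 held 3 CCAAT boxes and 2 CHR matches, Cdk1 held 3 CCAAT boxes, 2 CHR matches and 1 E2F site, Ube2c held 6 CCAAT boxes (a pair of which overlap on opposite strands) and 1 CHR match, and Mcm6 held 2 CCAAT boxes and 3 E2F sites, of which a pair overlap. Ccne1 held none of these words in this window. The windows of Birc5, Cdt1, E2f1, Nusap1, Tk1 and Tyms held none either. Of these, E2f1 had a lower mean normalized count in RvD6 (111) than in vehicle (131). The others had higher ones, such as Nusap1 with 100 in RvD6 and 25.4 in vehicle. Of the 44 genes, 35 had an entry in the RefSeq promoter table, with 38 windows in all because Mcm7, Prc1 and Uhrf1 have more than 1. A CCAAT box was present in 29 of the 38 windows (76.3%), against 33.8% of all 32851 windows of this length. A CHR match was present in 10 (26.3%), against 16% of all windows, and each of these 10 also held a CCAAT box, a pairing found in 5.55% of all windows. An E2F site was present in 7 (18.4%), against 1.86%. These are matches of letters and not measured binding. The 10 genes with a CHR match in any window had a median log2 fold change of 2.20 for RvD6 against vehicle and the other 25 with an entry one of 1.24. The other motifs differed less. The median was 1.55 for the 26 genes with a CCAAT box and 1.16 for the other 9. It was 1.41 for the 7 with an E2F site and 1.35 for the other 28. These medians are given without a test.

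The comparison of RvD6 with vehicle asks what the standard mediator changed in the ganglion. Most cell cycle genes had higher mean counts in the RvD6 samples, with large scatter. By edgeR, 0 of the 42 tested genes passed an adjusted p of 0.05, where the share of all 16567 tested genes called was 0%. Without the filter 0 of 44 passed, beside 0.171% of all genes with a read. At an unadjusted p under 0.05 the filtered test had 19 of the 42 genes higher and 1 lower, beside 7.63% of all tested genes higher and 5.99% lower. Without the filter it had 22 of 44 higher and 0 lower, beside 8.33% and 4.87% of genes. DESeq2 called 1 of the 44, Cenpf, where it called 1.92% of the 19190 genes to which it gave an adjusted p. Cenpf passed the edgeR filter only through the RvD6 samples, where it is high, so this call is no support. The median log2 fold change of all 44 genes was 1.25, while that of all genes was 0.02 in either fit.

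Without a model, 8 of the 44 genes had all 5 RvD6 samples above all 5 vehicle samples, and 0 had them all below, beside 1.25% and 0.85% of genes with a read. These 8 were Mki67, Top2a, Plk1, Ube2c, Cenpf, Nusap1, Rrm2 and Hmgb2. The count of higher genes was 13 without vehicle 4 and 14 without RvD6 9, beside 1.87% and 1.72% of genes at those settings, and 8 to 10 without any other sample. In the plot of fold changes with their intervals, 39 of the 42 filtered genes lie to the right of zero for RvD6 against vehicle.

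**Figure D2:**
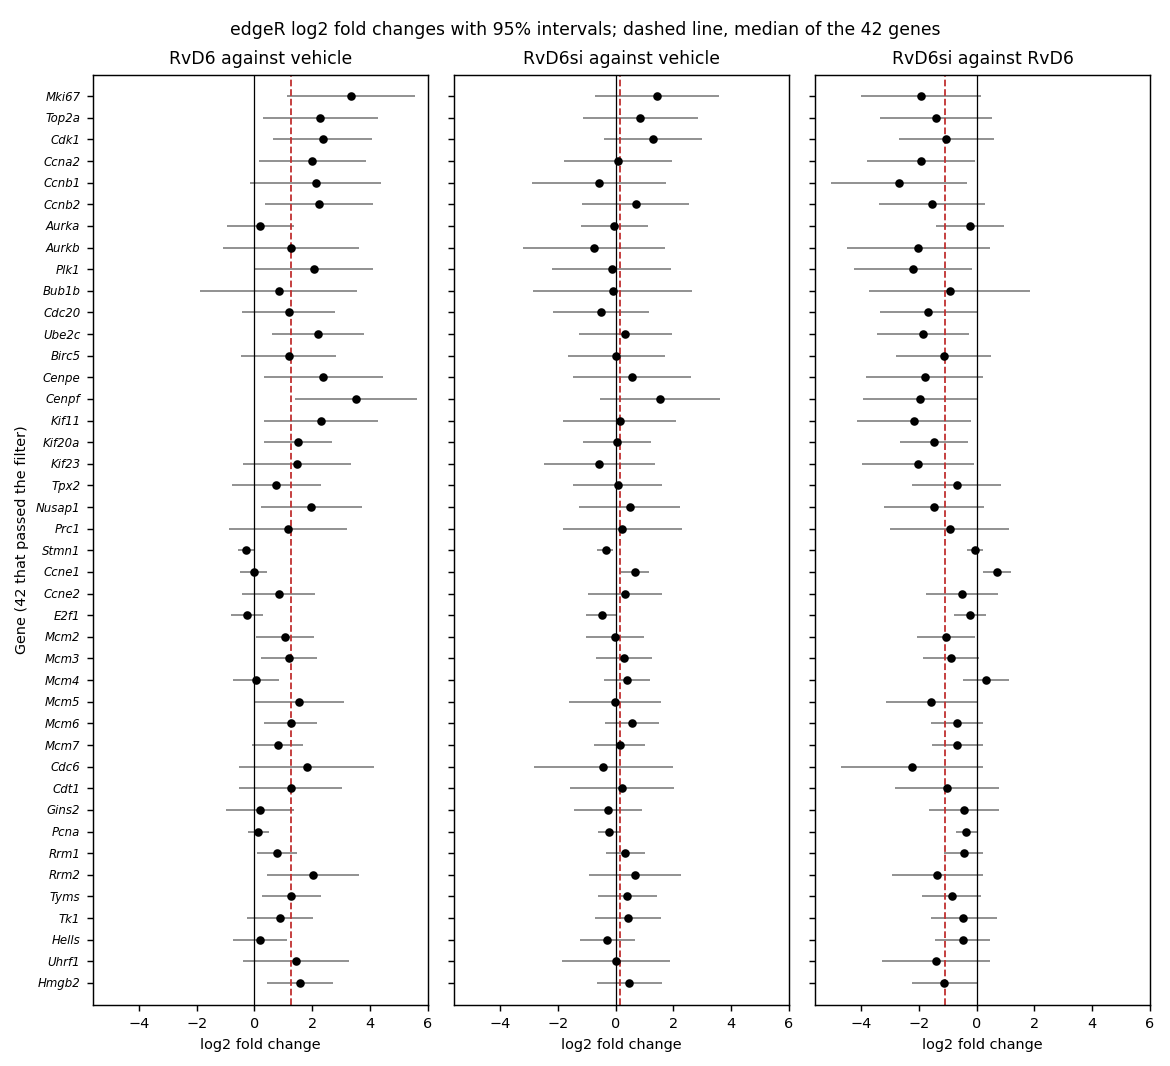
log2 fold changes (points) with 95% intervals (bars) from edgeR for the 42 genes that passed the filter, in the comparisons of RvD6 with vehicle, RvD6si with vehicle and RvD6si with RvD6. The dashed line is the median of the 42 genes, at 1.26, 0.14 and -1.09.

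Among the proliferation markers, Mki67 had 21.6, 46.3, 1.6, 57.1 and 55.9 normalized counts in the vehicle samples and 209, 561, 298, 159 and 641 in the RvD6 samples. Every RvD6 sample lay well above every vehicle sample, and the lowest vehicle value, that of sample 3, came from 2 reads. The log2 fold change was 3.35 ± 1.05 (SE), with an edgeR p of 0.00513 before and 0.191 after adjustment. Top2a had 35.3, 25.8, 40.1, 74.8 and 0 normalized counts in vehicle and 112, 205, 157, 86.8 and 301 in RvD6, again without overlap, for a log2 fold change of 2.28 ± 0.95 (edgeR adjusted p = 0.309).

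The cyclins and mitotic kinases had a median log2 fold change of 2.06 over 7 genes, all 7 of them above zero. Cdk1, the kinase that triggers mitosis, had 10.8, 4.45, 8.02, 28.5 and 18.9 normalized counts in vehicle and 93.0, 35.1, 63.0, 21.1 and 153 in RvD6, and the groups overlapped only through vehicle 4 and RvD6 9. Its log2 fold change was 2.36 ± 0.82 (edgeR adjusted p = 0.223). Ccnb1, which encodes cyclin B1, the partner of CDK1, had 0, 0.890, 4.81, 40.3 and 16.4 normalized counts in vehicle and 44.6, 36.0, 79.9, 8.68 and 104 in RvD6. The groups overlapped, and the log2 fold change of 2.12 ± 1.08 had an edgeR adjusted p of 0.407. Ccna2 and Ccnb2, the genes of cyclins A2 and B2, had values of 2.00 and 2.25. Aurka, the gene of a spindle pole kinase, stood apart at 0.20 ± 0.55.

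The 4 genes of the spindle checkpoint and anaphase promotion had a median log2 fold change of 1.5 without the filter. The 3 that passed it had a median of 1.18. Ube2c, the ubiquitin-conjugating enzyme that works with the anaphase-promoting complex, had 18.7, 4.45, 20.9, 48.2 and 46.9 normalized counts in vehicle and 105, 106, 122, 59.5 and 250 in RvD6. The groups did not overlap, and the log2 fold change was 2.19 ± 0.76 (edgeR adjusted p = 0.223). Of its exonic bases, 22.8% are shared with Tnnc2, a muscle gene on the other strand. The counting took no account of strand and, with the options in the file header, left out reads that touch more than 1 gene. Reads within the shared bases were therefore counted for neither gene. Tnnc2 had a median of 0.111 CPM in vehicle and 3.69 CPM in RvD6, and the effect of the overlap on the counts of Ube2c was not tested. Bub1, a checkpoint kinase that did not pass the filter, had 0 to 12.8 normalized counts in vehicle and 3.02 to 23.6 in RvD6.

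The 10 genes of the spindle, kinetochore and cytokinesis had a median of 1.49. Cenpf, the gene of a large kinetochore protein, had 0.721, 0, 6.42, 15.7 and 7.4 normalized counts in vehicle and 64.9, 104, 30.8, 29.7 and 120 in RvD6. All 5 RvD6 samples lay above all 5 vehicle samples, at a low level in vehicle of 0.124 TPM. The log2 fold change of 3.51 ± 1.01 had an edgeR adjusted p of 0.174, and DESeq2 gave 3.54 with an adjusted p of 0.022. Cenpf passed the filter only through the RvD6 samples, where it is high, so these values are no support. Kif20a, a kinesin of cytokinesis, had 24.5, 15.1, 3.21, 13.8 and 3.29 normalized counts in vehicle and 39.1, 31.5, 53.2, 27.3 and 23.2 in RvD6. Its groups overlapped slightly, with a log2 fold change of 1.51 ± 0.56 (edgeR adjusted p = 0.26), and 29.3% of its exonic bases are shared with Cdc23 on the other strand.

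Stmn1 was the exception in this role. It had 2000, 2040, 2360, 2170 and 2570 normalized counts in vehicle and 1900, 1730, 1870, 1690 and 2050 in RvD6, so the RvD6 samples were mostly the lower ones, with slight overlap. The log2 fold change was -0.28 ± 0.13, with an edgeR p of 0.0453 before and 0.357 after adjustment.

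Replication genes were split. The 10 genes of origin licensing and the replication fork had a median of 1.12, with all 10 above zero, but they ranged from 0.06 for Mcm4 to 1.82 for Cdc6. Mcm6, a subunit of the replicative helicase, had 22.4, 76.5, 43.3, 104 and 108 normalized counts in vehicle and 113, 259, 78.5, 143 and 255 in RvD6, for a log2 fold change of 1.25 ± 0.44 (edgeR adjusted p = 0.231). Only RvD6 8 fell within the vehicle range. Mcm3 had 35.3, 52.5, 34.5, 50.2 and 22.2 in vehicle and 44.6, 96.4, 96.7, 96.7 and 114 in RvD6, for 1.19 ± 0.46 (edgeR adjusted p = 0.282). Mcm2 had 44.7, 56.1, 99.5, 121 and 70.7 in vehicle and 152, 114, 160, 58.3 and 332 in RvD6, for 1.05 ± 0.48 (edgeR adjusted p = 0.345). In both of these other helicase subunits the groups overlapped.

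Pcna, by contrast with the helicase genes, had 291, 192, 243, 243 and 271 normalized counts in vehicle and 225, 305, 242, 270 and 329 in RvD6. These ranges covered each other almost fully, and the log2 fold change of 0.13 ± 0.18 had a 95% interval of -0.24 to 0.50 (edgeR adjusted p = 0.797). PCNA also serves DNA repair, in cells that do not divide.

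The 4 nucleotide supply genes had a median of 1.08 and were all above zero. Rrm2, the inducible subunit of ribonucleotide reductase, had 5.05, 13.3, 53.8, 74.8 and 11.5 normalized counts in vehicle and 147, 90.1, 105, 85.5 and 221 in RvD6, without overlap, for a log2 fold change of 2.03 ± 0.76 (edgeR adjusted p = 0.266). Tyms, the gene of thymidylate synthase, had 14.4, 24.9, 22.5, 30.5 and 15.6 in vehicle and 16.4, 39.7, 50.4, 44.6 and 114 in RvD6, where only RvD6 6 fell within the vehicle range. Its log2 fold change was 1.28 ± 0.49 (edgeR adjusted p = 0.271). Among the 3 chromatin factors, Hmgb2, a DNA-bending protein of dividing cells, had 19.5, 13.3, 26.5, 34.4 and 9.87 in vehicle and 36.7, 74.8, 43.4, 64.5 and 96.6 in RvD6. The groups did not overlap, and the log2 fold change was 1.59 ± 0.54 (edgeR adjusted p = 0.221).

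The genes of the G1/S group did not move together. Its 3 tested genes had a median of -0.03, and all 4 had one of 0.39 without the filter. Ccne2, the gene of cyclin E2, had the highest value of the 3, at 0.84. Ccne1 had 93.7, 64.9, 83.4, 100 and 97.9 normalized counts in vehicle and 71.9, 108, 65.8, 85.5 and 104 in RvD6. The 2 ranges were nearly the same, with a log2 fold change of -0.03 ± 0.23 and a 95% interval of -0.51 to 0.45. E2f1, a factor that activates S phase genes, had a value of -0.25 ± 0.26. Foxm1, a factor that activates mitotic genes, did not pass the filter and had 0 to 10.7 normalized counts in vehicle and 0 to 35.9 in RvD6.

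**Figure D3:**
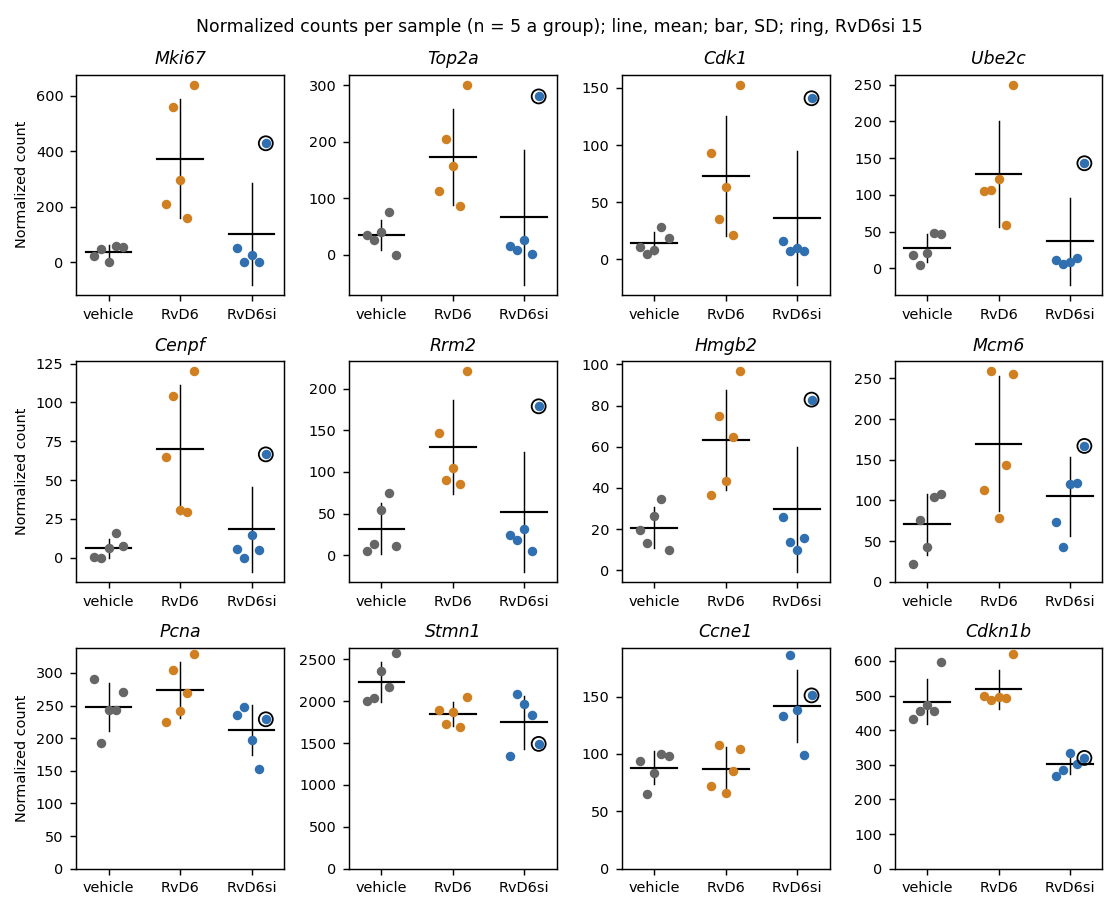
Normalized counts of 12 genes in every sample (points, n = 5 a group), with the group mean (line) and SD (bar); the ring marks RvD6si 15. For Mki67, Top2a, Ube2c, Cenpf, Rrm2 and Hmgb2 all RvD6 points lie above all vehicle points, and the ringed point lies far above the other RvD6si points.

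Markers of blood precursors, in lists also chosen with earlier results of these data known, were higher in the same libraries. The 13 erythroid precursor markers summed to 2390 to 5100 CPM in vehicle (median 2820) and to 5790 to 10800 CPM in RvD6 (median 10100), without overlap. The 14 granulocyte precursor markers summed to 164 to 841 CPM in vehicle (median 296) and to 944 to 3020 CPM in RvD6 (median 2450), also without overlap. The erythroid sums came mostly from globin genes, such as Hba-a1 with medians of 1060 CPM in vehicle and 3550 CPM in RvD6. Ngp was the most counted granulocyte marker, with medians of 63.6 and 663 CPM. These sums do not separate precursors from mature blood cells. The 43 cell cycle genes other than Stmn1 summed to 196 to 338 CPM in vehicle (median 205) and to 350 to 823 CPM in RvD6 (median 479). In edgeR 13 of 13 erythroid and 14 of 14 granulocyte markers had a log2 fold change above zero, beside 52.2% of all tested genes. At an unadjusted edgeR p under 0.05, 10 and 14 of them were higher, beside 7.63% of all tested genes, and 0 of either list passed the adjusted threshold. Without RvD6si 15 in the fit, 4 erythroid and 8 granulocyte markers passed it, and 0 cell cycle genes did, beside 0.293% of all genes called higher. No marker of either list was at 0 in the RvD6 group. Among the defining ones, Klf1, an erythroid transcription factor, had a median of 0.803 CPM in vehicle and 4.87 CPM in RvD6, and Mpo, the myeloperoxidase of granulocyte precursors, 3.35 and 66.3 CPM.

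With the mean level of these markers as a covariate, a fit chosen after seeing the data, the median log2 fold change of the cell cycle genes for RvD6 against vehicle was 0.05 in place of 1.26, and 1 of the 42 genes had an unadjusted edgeR p under 0.05 in place of 20. The marker level also differs between the groups, so marker level and treatment cannot be told apart in this fit.

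**Figure D4:**
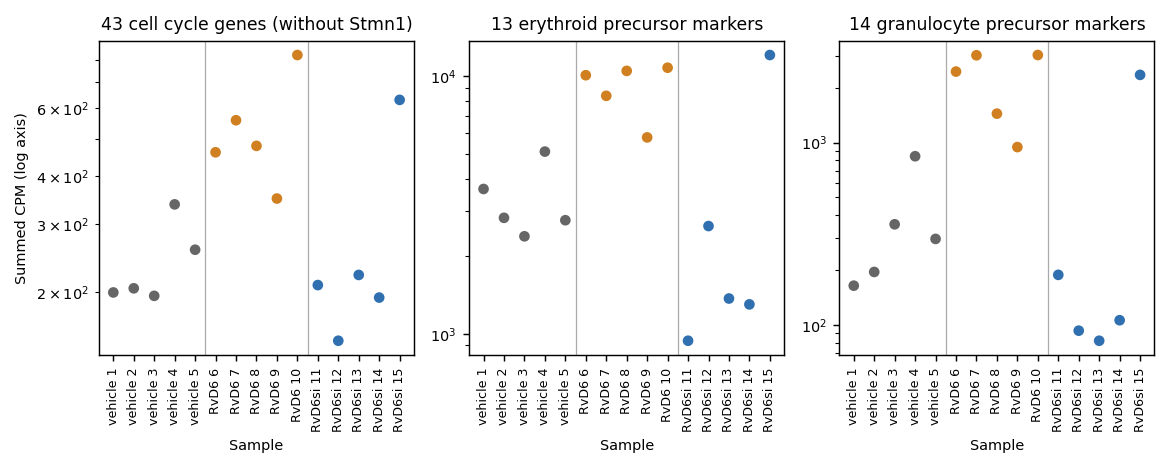
Summed CPM (log axis) in each of the 15 samples for the 43 cell cycle genes other than Stmn1, the 13 erythroid precursor markers and the 14 granulocyte precursor markers; colours and lines separate the groups. In all 3 panels the RvD6 samples and RvD6si 15 lie above the vehicle samples, and the other 4 RvD6si samples lie within or below the vehicle range.

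Other cell types were not at the same level in all groups either. The 12 sensory neuron markers summed to 13800 to 15800 CPM in vehicle and 7620 to 14800 CPM in RvD6, with all 12 below zero in the log2 fold change and a median of -0.39. The 8 skeletal muscle markers summed to 48.4 to 178 CPM in vehicle, 103 to 2360 CPM in RvD6 and 35.7 to 68.7 CPM in RvD6si. Without the filter their median log2 fold change was 4.08 for RvD6 against vehicle, the largest of the marker lists. In that fit edgeR called 7 of the 8 higher, beside 0.171% of genes called, and with the filter 0 of 7. For RvD6si against RvD6 the unfiltered median was -5.07, and 6 of the 8 were called lower, beside 0.18% of genes called. The 8 pituitary markers, one of which, Lhb, was at 0 in every sample, ranged from 9.97 to 3760 CPM over the 15 samples. B lineage markers summed to 79.8 to 109 CPM in vehicle and 104 to 173 CPM in RvD6, mostly from Ebf1, with medians of 77.5 and 82.3 CPM. All 8 tested B lineage markers were above zero for RvD6 against vehicle, with a median log2 fold change of 1.79. Of them, 1 was higher at an unadjusted edgeR p under 0.05, beside 7.63% of all tested genes. Cd79a, a subunit of the B cell receptor, had medians of 0.78 and 5.14 CPM. Macrophage markers summed to 91.2 to 135 and 90.2 to 167 CPM, and T and NK cell markers to 4.13 to 14.0 and 2.60 to 25.3 CPM. Fibroblast markers summed to 1370 to 1670 and 1380 to 2260 CPM, mostly from Dcn. All 6 were above zero for RvD6 against vehicle, with a median log2 fold change of 0.79, and DESeq2 called 2 of them, beside 1.92% of genes. The sums of endothelial, satellite glia and Schwann cell markers overlapped between these 2 groups. The part of these cell types in the result was not tested.

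The comparison of RvD6si with vehicle asks the same of the isomer and uses the same 5 vehicle samples, so the values of both comparisons are given side by side and are not independent. Of the 42 tested genes 0 passed the adjusted threshold by edgeR, where 0.67% of all tested genes did. At an unadjusted p under 0.05, 1 gene was higher and 1 lower, beside 8.69% and 7.3% of all genes. Without the filter 0 of 44 passed the adjusted threshold, beside 0.272% of genes with a read. At the unadjusted one, 1 was higher and 1 lower, beside 7.4% and 5.65%. Of the 44 genes 0 had groups that did not overlap, beside 1.29% higher and 1.31% lower. DESeq2 called 1 gene, Ccne1, where it called 8.13% of the 11321 genes to which it gave an adjusted p. It gave none to 27 of the 44. The median log2 fold change of the 44 genes was 0.15 without the filter, beside 0.00 for all genes.

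That median rested on single libraries. It was 0.42 without vehicle 4, the vehicle sample with the highest value in 26 of the 44 genes. Without RvD6si 15 the median of the tested genes turned from 0.14 to -0.56, and 1 gene was higher and 5 were lower at an unadjusted p under 0.05, beside 8.43% and 7.62% of all genes. Still 0 genes were called, where 0.423% of genes were called higher and 0.088% lower. Mki67 had 50.8, 0.799, 27.4, 0 and 429 normalized counts in RvD6si, so that 4 samples lay within or below the vehicle range and RvD6si 15 far above it. Its log2 fold change against vehicle was 1.43 ± 1.02 with all samples and -0.92 ± 0.87 without RvD6si 15, and neither passed the test. Cdk1 had 15.8, 7.19, 10.0, 7.24 and 141 in RvD6si, and its value likewise went from 1.31 to -0.49. The marker sums showed the same library apart. Erythroid markers summed to 12100 CPM in RvD6si 15 and to 939 to 2620 CPM in the other 4, and granulocyte markers to 2350 CPM and to 81.8 to 188 CPM.

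Ccne1 and Stmn1 did not depend on this library in the same way. Ccne1 had 133, 186, 138, 99.3 and 151 normalized counts in RvD6si against 64.9 to 100 in vehicle, so only the 99.3 of sample 14 fell within the vehicle range. The log2 fold change was 0.68 ± 0.23, with an edgeR adjusted p of 0.148 and a DESeq2 adjusted p of 0.0392, and it was 0.65 ± 0.25 without RvD6si 15. Stmn1 had 1350, 2090, 1970, 1830 and 1490 normalized counts in RvD6si, which overlapped with vehicle. Its log2 fold change was -0.35 ± 0.13 (edgeR adjusted p = 0.194) and -0.30 ± 0.14 without RvD6si 15. Pcna, with 236, 248, 197, 153 and 229, had a value of -0.23 ± 0.18 with a 95% interval of -0.60 to 0.14, and -0.26 ± 0.19 without RvD6si 15.

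The comparison of RvD6si with RvD6 sets the stereoisomers against each other at the same schedule. It shares its RvD6 samples with the comparison of RvD6 with vehicle, so the values of both are not independent. With all samples 0 of the 42 genes passed the adjusted threshold by edgeR, where 0.235% of all genes did, and DESeq2 called 0 of the 44, where it called 0.936% of the 19769 genes with an adjusted p. At an unadjusted edgeR p under 0.05, 1 gene was higher in RvD6si and 8 were lower, beside 4.18% and 4.64% of all genes. Without the filter 0 of 44 passed the adjusted threshold, beside 0.18% of genes with a read. At the unadjusted one, 1 was higher and 17 were lower, beside 4.34% and 5.88%. The median log2 fold change of the 44 genes was -1.07 without the filter, and 2 of the 44 genes, Kif11 and Kif20a, had all RvD6si samples below all RvD6 samples, beside 0.713% of genes with a read, while 0 had them all above, beside 0.401%. Without RvD6 9 the count of lower genes was 4, beside 1.21%. The intervals were wide, from -4.0 to 0.16 for Mki67 and from -2.69 to 0.60 for Cdk1, so these data do not show that the isomers act alike on these genes.

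RvD6si 15 was left out after seeing that these same genes were high in it, so the values without it describe the other 4 RvD6si samples and do not show that the isomers differed; with all samples 0 genes passed. In that fit the adjusted threshold was passed by 6 genes, Mki67, Top2a, Cdk1, Ccna2, Ube2c and Cdc6, all lower in RvD6si, beside 0.833% of the 17038 genes tested then that were called lower. Mki67 had 0 to 50.8 normalized counts in the remaining 4 RvD6si samples and 159 to 641 in RvD6, for a log2 fold change of -4.26 ± 0.93 (edgeR adjusted p = 0.0396). Top2a had 15.8, 7.99, 25.6 and 2.07 there against 86.8 to 301, for -3.72 ± 0.82 (edgeR adjusted p = 0.0397). Ube2c had 11.3, 6.39, 9.13 and 14.5 against 59.5 to 250, for -3.63 ± 0.61 (edgeR adjusted p = 0.00664).

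In these genes the 4 RvD6si samples lay below every RvD6 sample. The same held for Cdk1 at -2.85 ± 0.64 (edgeR adjusted p = 0.0454) and for Ccna2 at -3.76 ± 0.83 (edgeR adjusted p = 0.0397). Cdc6, the loader of the MCM ring, had 3 reads in the 4 RvD6si samples together and 9.01 to 57.8 normalized counts in RvD6, with an edgeR adjusted p of 0.0471. It had passed the filter only through the RvD6 samples, where it is high, so its call is no support, and no fold is given against so few reads. Nusap1 missed the threshold with a fold as large as that of Cdk1, at -2.97 ± 0.78 (edgeR adjusted p = 0.0948). Cenpf also missed it, at -3.43 ± 0.97 (edgeR adjusted p = 0.12). Cenpf had passed the filter only through the RvD6 samples, so its value is no support. Groups that did not overlap then numbered 18 of the 44 genes, all lower in RvD6si, beside 1.96% of genes with a read, and the median log2 fold change was -2.07. At an unadjusted edgeR p under 0.05, 27 genes were lower and 1 higher, beside 6.61% and 4.68% of all genes. In these same 4 samples the erythroid markers summed to at most 2620 CPM and the granulocyte markers to at most 188 CPM, below the lowest RvD6 samples at 5790 and 944 CPM.

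**Figure D5:**
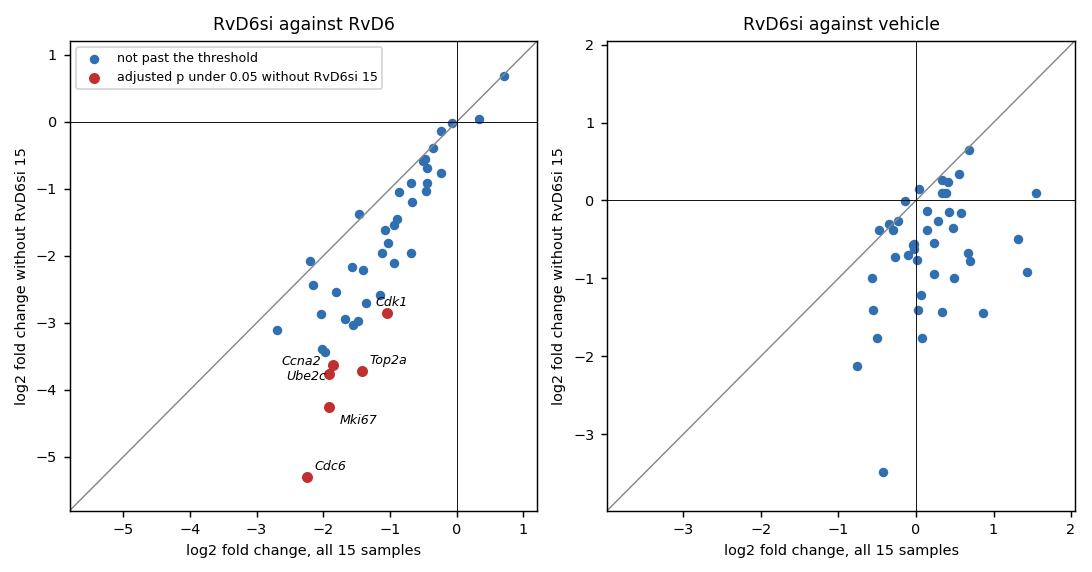
log2 fold change of each gene with all 15 samples (horizontal axis) and without RvD6si 15 (vertical axis), for RvD6si against RvD6 (left) and against vehicle (right); the grey diagonal marks equal values. Most points lie below the diagonal, and the 6 red points on the left are the genes with an adjusted p under 0.05 without that library; the position of Cdc6 rests on 3 reads.

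With all samples, Ccne1 was higher in RvD6si, at 99.3 to 186 against 65.8 to 108 normalized counts in RvD6, with a log2 fold change of 0.71 ± 0.23, a 95% interval of 0.23 to 1.19 and an edgeR p of 0.00626 before and 0.314 after adjustment. Its groups overlapped through RvD6si 14. Pcna had a value of -0.36 ± 0.18 with an interval of -0.73 to 0.02, and Stmn1 one of -0.07 ± 0.13 with an interval of -0.35 to 0.21. Mcm4 was the only other gene above zero, at 0.33 ± 0.38.

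Further cell cycle genes outside the 44 were read from 4 lists. Of 41 other mitosis genes 35 were tested, and for RvD6 against vehicle 0 passed the adjusted threshold by edgeR, where 0% of all tested genes did. At an unadjusted edgeR p under 0.05, 15 were higher, beside 7.63% of all tested genes. Without the filter 18 of the 41 were higher, beside 8.33% of genes with a read. The median log2 fold change was 1.30 (1.25 over all 41 without the filter). Nuf2, a subunit of the kinetochore complex that binds microtubules, had 0.721, 0, 0, 6.89 and 0 normalized counts in vehicle and 48.5, 60.4, 35.0, 22.3 and 45.3 in RvD6, without overlap. Its log2 fold change was 4.76 ± 1.14, with an edgeR adjusted p of 0.114 and a DESeq2 adjusted p of 0.0034. Nuf2 passed the filter only because of its counts in the RvD6 samples, and the fold rests on few vehicle reads. These values are therefore no support. In RvD6si it had 3.39, 0, 0, 10.3 and 11.4, all below the lowest RvD6 sample. Its partner subunit gene Ndc80 had 0.721, 7.12, 0, 0 and 0 in vehicle, 6.2 to 32.2 in RvD6 and 0 to 32.5 in RvD6si. Here both treated groups reached above vehicle, with log2 fold changes of 3.44 ± 1.11 and 3.53 ± 1.11 (edgeR adjusted p = 0.197 and 0.12). Both folds rest on few vehicle reads, and Ndc80 passed the filter only through the RvD6 and RvD6si samples, where it is high. These values too are no support. The centrosomal kinase gene Nek2 had reads in only 1 vehicle sample and no fold is given for it. Racgap1, which acts in cytokinesis, was called by DESeq2 for RvD6si against vehicle (log2 fold change 1.12 ± 0.32 by edgeR, DESeq2 adjusted p = 0.0134, edgeR adjusted p = 0.0953). It was the 1 DESeq2 call of this list in that comparison, beside 8.13% of all genes with an adjusted p. DESeq2 gave no adjusted p to 31 of the 41.

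Of 34 other replication genes 32 were tested, with a median log2 fold change of 0.12 for RvD6 against vehicle. At an unadjusted edgeR p under 0.05, 2 of them were higher, beside 7.63% of all tested genes, which is near the same share. Pola1, the catalytic subunit of DNA polymerase alpha, had 41.8 to 82.2 normalized counts in vehicle and 96.7 to 153 in RvD6, without overlap, for a log2 fold change of 0.90 ± 0.27 (DESeq2 adjusted p = 0.0405, edgeR adjusted p = 0.177). Gins3, a subunit of the replicative helicase complex, had 186 to 279 in vehicle and 115 to 189 in RvD6si, for -0.83 ± 0.25 (DESeq2 adjusted p = 0.0196, edgeR adjusted p = 0.104). Each was the 1 DESeq2 call of the 34 genes in its comparison. DESeq2 called 1.92% of all genes with an adjusted p for RvD6 and 8.13% for RvD6si against vehicle. This list, which holds many genes also used in repair, lay near the median of all genes. The list of 13 G1 kinases, D cyclins and E2F factors had a median of 0.37 over 12 tested genes for RvD6 against vehicle. The largest values were those of E2f2 at 2.85 ± 0.95 and E2f8 at 2.68 ± 0.97. Both were without overlap and neither was past the threshold (edgeR adjusted p = 0.21 and 0.244). Both passed the filter only because of their counts in the RvD6 samples, where they are high, so these values are no support. Ccnd3, the gene of cyclin D3, had 144 to 202 normalized counts in vehicle and 261 to 336 in RvD6.

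Among 17 inhibitors of the cycle, 16 of which were tested, 1 gene passed the threshold by edgeR in each comparison with RvD6si, beside 0.67% of tested genes against vehicle and 0.235% against RvD6. Cdkn1b, the gene of the CDK inhibitor p27, had 431, 456, 473, 456 and 596 normalized counts in vehicle, 500, 487, 496, 492 and 619 in RvD6 and 268, 284, 335, 302 and 320 in RvD6si. The RvD6si samples all lay below both other groups, and RvD6si 15 lay among them. The log2 fold change was -0.68 ± 0.14 against vehicle (edgeR adjusted p = 0.0346) and -0.77 ± 0.14 against RvD6 (edgeR adjusted p = 0.0247), and the DESeq2 adjusted p was 0.000103 and 6.18e-06. For RvD6 against vehicle it was 0.09. The edgeR call was lost without the filter on low counts (adjusted p = 0.0727 and 0.0507) and with only the 2 groups compared in the fit (0.0519 and 0.0802). Against vehicle it was also lost without any 1 of the vehicle samples, RvD6si 11 or RvD6si 14, with edgeR adjusted p of 0.0523 to 0.105. Against RvD6 it was lost without RvD6 8, 9 or 10 or RvD6si 11, 12, 13 or 14, with edgeR adjusted p of 0.0527 to 0.104. It was lost too with the blood precursor markers as a covariate, with log2 fold changes of -0.67 and -0.70 and edgeR adjusted p of 0.0722 and 1.

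Cdkn1a, the gene of the CDK inhibitor p21, had 1090, 1040, 992, 1510 and 1490 normalized counts in vehicle, 935, 1010, 981, 1250 and 1170 in RvD6 and 733, 1150, 849, 899 and 1290 in RvD6si. The groups overlapped, and the log2 fold change was -0.21 ± 0.17 for RvD6 and -0.32 ± 0.17 for RvD6si against vehicle. Ccng1, a p53 target that encodes cyclin G1, had 262 to 307 in vehicle, 314 to 1140 in RvD6 and 351 to 698 in RvD6si, so both treated groups lay above vehicle. DESeq2 called it in both comparisons (adjusted p = 0.0455 and 0.0452), with edgeR log2 fold changes of 0.97 ± 0.29 and 0.85 ± 0.29 and adjusted p of 0.177 and 0.146. Of the 17 inhibitors DESeq2 called 1 for RvD6 against vehicle, beside 1.92% of genes with an adjusted p. For RvD6si against vehicle it called 1 higher and 1 lower, beside 8.13%.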

How the data were processed

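Total RNA of the right trigeminal ganglion (1 ng per library) was converted to cDNA with an adapted Smart-seq2 protocol, which marks no strand, and sequenced. The deposited file holds raw counts, which the authors made by aligning reads to GRCm38 with Rsubread and counting exons of GENCODE M22 genes with featureCounts. The labels name Subread 1.6.5, and the file header gives another featureCounts version. The authors' table also gives exonic lengths.

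Counts of all 15 samples, grouped by their labels, were fitted together with edgeR 4.0.16 in R 4.3.3 (quasi-likelihood test, TMM scaling, at least 10 counts by edgeR's filter, Benjamini-Hochberg over all 16567 genes tested). Normalized counts are counts divided by DESeq2 size factors. Intervals of 95% cover the fitted fold change. The test was checked on simulated data. The alternatives were DESeq2 1.42.0 at default settings, 2 groups only, RLE scaling, other filters, an offset for length and each sample left out in turn. No pair of replicates agreed within sampling noise (chi-square per degree of freedom 11.3 to 49.2). Gene names were found for 99.7% of identifiers. The 44 genes and all lists were chosen with earlier results of these data known. Genes given with every sample's value were those called by edgeR or DESeq2, those with the smallest p up to 12, and the references Mki67, Top2a, Cdk1, Pcna, Mcm2, Ccnb1, Rrm2 and Cdkn1a. From other cell cycle lists, called genes and at most 3 of smallest p were named.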

Additional observations from a re-analysis of the deposited data

Results flagged for a closer look

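The highest or lowest sample lay far from the rest of its group, by Dixon's test at the 95% level, in 12 of the 60 groups of 5 tested, where chance gives about 1 in 20. Of these, 10 were RvD6si 15. It had 429 normalized counts of Mki67, 280.0 of Top2a, 141 of Cdk1, 143 of Ube2c, 66.6 of Cenpf, 179 of Rrm2 and 82.9 of Hmgb2. Its summed CPM was 630.0 for the 43 cell cycle genes other than Stmn1, 12100 for the erythroid precursor markers and 2350.0 for the granulocyte precursor markers. These groups share a library and are not independent. The other 2 were the low value of Mcm3 in RvD6 6, with 44.6 normalized counts, and the high granulocyte marker sum of vehicle 4, with 841 CPM.

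The effect of the isomers on Cdkn1b relative to the shared vehicle samples differed, with a log2 difference between RvD6si and RvD6 of -0.77 (edgeR adjusted p = 0.0247), lower in 5 of 5 RvD6si samples than in every RvD6 sample. The range of the edgeR adjusted p over the samples left out was 0.0211 to 0.104.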

How the results depend on the processing

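No paired analysis was possible because the 3 groups have no replicate number in common. Of the values given for single genes under the alternatives, 1144 kept their direction and side of the threshold and 37 changed sign. A further 15 passed the threshold only under an alternative and 20 only in the fit as reported. All of these 20 were values of Cdkn1b, in the comparisons of RvD6si with vehicle and with RvD6. The cause of these changes was not tested. For counts and medians of the 44 genes, 171 were close to the reported value, 16 moved and 2 changed sign.

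The number of genes called for RvD6 against vehicle, 0 by edgeR, was 1 by DESeq2, 8 by DESeq2 with only the 2 groups in the fit (beside 3.31% of 20069 genes), and 1 by edgeR with only the 2 groups (beside 0.24% of 15826 genes). For RvD6si against vehicle it was 1 by DESeq2 in either form (beside 8.13% and 8.67% of genes with an adjusted p). With a sample left out it was 0 to 6 for RvD6si against RvD6, where 6 came without RvD6si 15. The median log2 fold change then ranged from -0.56 (without RvD6si 15) to 0.42 (without vehicle 4) for RvD6si against vehicle and from -2.07 to -0.83 for RvD6si against RvD6. Genes whose groups do not overlap then numbered 0 to 1 for RvD6si against vehicle, 8 to 14 for RvD6 against vehicle and 2 to 18 for RvD6si against RvD6; fewer samples make such separation easier, and the share of all genes with lower values in RvD6si than in RvD6 went from 0.713% to 1.96% without RvD6si 15.

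With the blood precursor markers as a covariate, chosen after seeing the data, the median was 0.05 for RvD6 against vehicle and 0.02 for RvD6si against RvD6. The log2 fold change of RvD6si against RvD6 then turned to 0.05 for Cenpf, 0.13 for Hmgb2, 0.95 for Cdk1, 0.04 for Mcm6, 0.41 for Rrm2, 0.28 for Top2a, 0.26 for Mcm2 and 0.23 for Cdkn1a. It turned to -0.09 for Mcm2 in RvD6 against vehicle, and to -0.09 for Kif20a, 0.18 for Mcm2 and 0.24 for Ccnb1 in RvD6si against vehicle. Ccne1 in RvD6 against vehicle was 0.01 with at least 10 counts in every sample and 0.06 with the trend on exonic length removed, which gave -0.06 for Kif20a in RvD6si against vehicle.

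With a sample left out, the difference between RvD6si and vehicle on the log2 scale ranged from -0.92 to 1.76 for Mki67, -1.44 to 1.32 for Top2a, -0.49 to 1.72 for Cdk1, -1.43 to 0.63 for Ube2c, -0.36 to 0.73 for Hmgb2, -0.67 to 1.26 for Rrm2, -0.27 to 0.56 for Mcm3 and -0.56 to 0.22 for Mcm2, with the lowest value in each without RvD6si 15. It ranged from -0.19 to 0.48 for Kif20a and from -1.23 to 0.58 for Ccnb1. Ccne1 ranged from -0.13 to 0.05 in RvD6 against vehicle, and Stmn1 from -0.13 to 0.01 in RvD6si against RvD6. Genes with a few reads per sample, such as Bub1, Foxm1 and Cdc6, are limited by depth.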
